A study of Homo sapiens with 8 samples.

Results

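The heat shock proteins and chaperonins are the cell's protein folding machinery, described here as a set of 32 genes in NB4 cells after knockdown of CDK2. The members were listed by name. Where several probe sets mapped to a member and to no other gene, the one with the largest average signal across the 8 arrays stands for it. This left 29 of the 32 members, out of 18132 genes measured. HSF2, HSPA1A and AHSA1 had no such probe set and were not analysed here. All 29 lay above the limit on low signal, as did 12845 genes in all. NB4 is a human acute promyelocytic leukaemia line, a single established line rather than patient cells. Cells received lentivirus at a multiplicity of infection of 10, carrying either a scrambled control or 1 of 3 short hairpin RNAs against CDK2 (shCDK2 #1, #3 and #10). RNA was taken after 2 days, which the study gives as an early differentiation stage, or after 5 days, given as a late one. Each construct and day has 1 Affymetrix array, so there are 2 scramble arrays and 6 hairpin arrays, and nothing in the labels names separate cultures. The p-values therefore measure only the spread between these arrays. The hairpins stand in as repeats in the comparisons by day, and the 2 days of a construct in those by hairpin.

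Chaperones bind proteins that are unfolded or only partly folded and keep them from clumping. HSP70 proteins work in cycles of ATP hydrolysis that HSP40 (DNAJ) proteins start and nucleotide exchange factors such as HSP110 and BAG proteins end; HSP90 receives many kinases and receptors from HSP70 with the help of co-chaperones. The CCT ring, also called TRiC, folds actin and tubulin inside a closed chamber, and HSP60 with its lid HSP10 does the same task in mitochondria. HSF1 is the transcription factor that raises many of these genes under stress, by binding inverted repeats of the bases GAA.

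Signals are log2 values as the authors deposited them. Array medians lay between 6.30 and 6.43, and no pair of arrays was identical. CDK2 itself stood at 9.10 in scramble at day 2, against 7.78 in #1, 9.03 in the day 2 array labelled shCDK2 #3 and 7.54 in #10. CDK2 at day 5 stood at 8.19 in the day 5 array labelled scramble, 7.89 in #1, 7.72 in #3 and 8.08 in #10. The day 2 array labelled shCDK2 #3 thus held about as much CDK2 signal as scramble, and the day 5 array labelled scramble was low for a control, so directions drawn from these arrays carry that doubt. CDK2 has 3 probe sets. On another, the scramble arrays were at 9.19 and 7.85, and the day 2 array labelled shCDK2 #3 at 8.88. On the dimmest, the scramble arrays were level at 7.51 and 7.53, and that #3 array was at 7.62. Of 9 promyelocyte markers 8 were measured and 7 lay above the limit on low signal, with KIT below it. Their summed signal lay between 13.96 and 14.78 log2 on every array and rested mainly on MPO, at 13.37 to 14.40. Markers of the cells' label were thus present, though ELANE was near the limit (5.83 to 6.35). They did not all hold level. In #10 at day 2 PRTN3 was at 9.99 against 11.18 in scramble, and AZU1 at 10.50 against 9.28. Of 6 monocyte markers 5 lay above the limit. CD14 and CD163 passed it only through #3 and #10 at day 5 and lay below it on every other array. Their place in this count follows from that limit and supports nothing. The summed signal of all 6 was 9.86 and 10.11 in the scramble arrays, 10.10 and 9.64 in #1, 9.91 and 11.49 in #3, and 11.34 and 12.03 in #10 (day 2 and day 5 in turn). VCAN stayed below the limit. Of 6 neutrophil markers only MMP9 and CAMP lay above it, and the summed signal was 10.22 and 11.44 in scramble, 11.17 and 12.23 in #1, 10.86 and 13.79 in #3, and 12.80 and 13.80 in #10. The monocyte sum was thus above scramble in every hairpin array but #1 at day 5, though only just in the day 2 array labelled shCDK2 #3. The neutrophil sum was above scramble in every hairpin array. That sum rested mainly on MMP9, at 13.75 in #10 at day 5, where CAMP was at 7.56. CAMP in #1 at day 5 was 6.66, against 6.68 in scramble. Monocyte markers did not all move alike. In #10 at day 5 CD14 was at 10.65 against 5.15 in scramble, and FCN1 at 7.49 against 8.74. The part of these markers in the results below was not tested. Lymphoid markers (4 of 6 above the limit) were also highest in #10, at 11.44 and 11.07 against 9.54 and 9.71 in scramble, through CD3D. Erythroid markers (2 of 4) lay between 7.40 and 8.05, and fibroblast and epithelial markers (5 of 6) between 8.80 and 9.13.

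HSF1 recognises the heat shock element, and the members differ in whether their promoters carry its letters. RefSeq promoters (build GRCh38.p14, 250 bases before to 50 after the start) were on hand for 29 of the 32 members; HSF1, HSPA14 and FKBP4 had no entry. The element was searched on both strands as 2 units, GAANNTTC or TTCNNGAA, each its own reverse complement, and as 3 units, GAANNTTC followed by NNGAA or TTCNNGAA followed by NNTTC; a match of 3 units holds overlapping matches of 2. A match of 2 units was in 10 member promoters (34.5%), against 3738 of 27305 promoters (13.7%). One of 3 units was in 4 (13.8%), those of CHORDC1, DNAJA1, DNAJB6 and HSPA8, against 133 promoters (0.487%). The stretches before the start of CHORDC1, DNAJB6 and HSPA8 are shown because they hold the 3-unit matches. That of HSPA1B is shown as the stress-inducible HSP70 member with the largest difference below on the probe sets used. Capitals mark the matching bases and every sequence runs 5′ to 3′ along the gene's strand. They lie at chr11:90223050-90223129 (minus strand) for CHORDC1, chr7:157336853-157336905 (plus) for DNAJB6, chr11:123062334-123062386 and chr11:123062159-123062211 (both minus) for HSPA8, and chr6:31827613-31827660 (plus) for HSPA1B.
CHORDC1: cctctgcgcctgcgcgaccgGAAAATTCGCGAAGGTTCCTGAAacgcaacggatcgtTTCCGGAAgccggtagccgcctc
DNAJB6: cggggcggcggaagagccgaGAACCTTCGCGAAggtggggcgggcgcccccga
HSPA8, far: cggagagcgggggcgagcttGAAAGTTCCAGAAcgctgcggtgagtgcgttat
HSPA8, near: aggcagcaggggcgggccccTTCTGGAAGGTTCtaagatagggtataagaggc
HSPA1B: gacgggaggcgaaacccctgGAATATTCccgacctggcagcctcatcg

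The CHORDC1 promoter held the longest run, with 3 overlapping 3-unit matches that begin 60 bases before the start. HSPA8 had its 2 such matches 230 to 218 and 55 to 43 bases before its start. A match here is a description of letters, not a bound site. In hairpin #10 against scramble over both days, the 9 members tested that have a 2-unit match had a median log2 difference of -0.43, with 8 of 9 lower. The 17 without one had a median of -0.47, with 14 of 17 lower. The search asked for exact letters in a single window per gene, so these 17 may hold elements it missed. The split therefore cannot tell whether the element plays a part. The 4 members with a 3-unit match ran from -0.53 (CHORDC1) to 0.73 (DNAJB6).

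At day 2 most chaperone genes had less signal in the hairpin arrays than in scramble. The members above scramble were DNAJB4 and DNAJB6 in #1, HSPA4L, HSP90AB1, HSPB1 and CCT8 in the day 2 array labelled shCDK2 #3, and DNAJB4, DNAJB6 and CCT8 in #10. The median log2 difference of the 29 members from scramble was -0.30 in #1, -0.34 in the day 2 array labelled shCDK2 #3 and -0.72 in #10, against 0.01, 0.03 and -0.03 over all genes tested. All 3 hairpin arrays lay below scramble for 23 members, as they did for 26.5% of all genes, and all 3 lay above it for no member, as they did for 25.6%. The scramble array at day 2 was the highest of the 8 arrays for 17 members (16.4% of all genes). With limma, no member and none of the 12845 genes (0.0%) passed an adjusted p of 0.05 for knockdown against scramble at day 2. At an unadjusted p under 0.05 there were 2 members, HSPA4 and CHORDC1, both lower (3.44% of all genes passed that level and 3.23% were lower). Of the members 27 had a lower fitted value (46.8% of all genes). The median over members was -0.47 for this comparison, -0.52 without the day 2 array labelled shCDK2 #3, -0.31 without #10 and -0.35 after quantile normalization. It rests on a single scramble array.

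**Figure D1:**
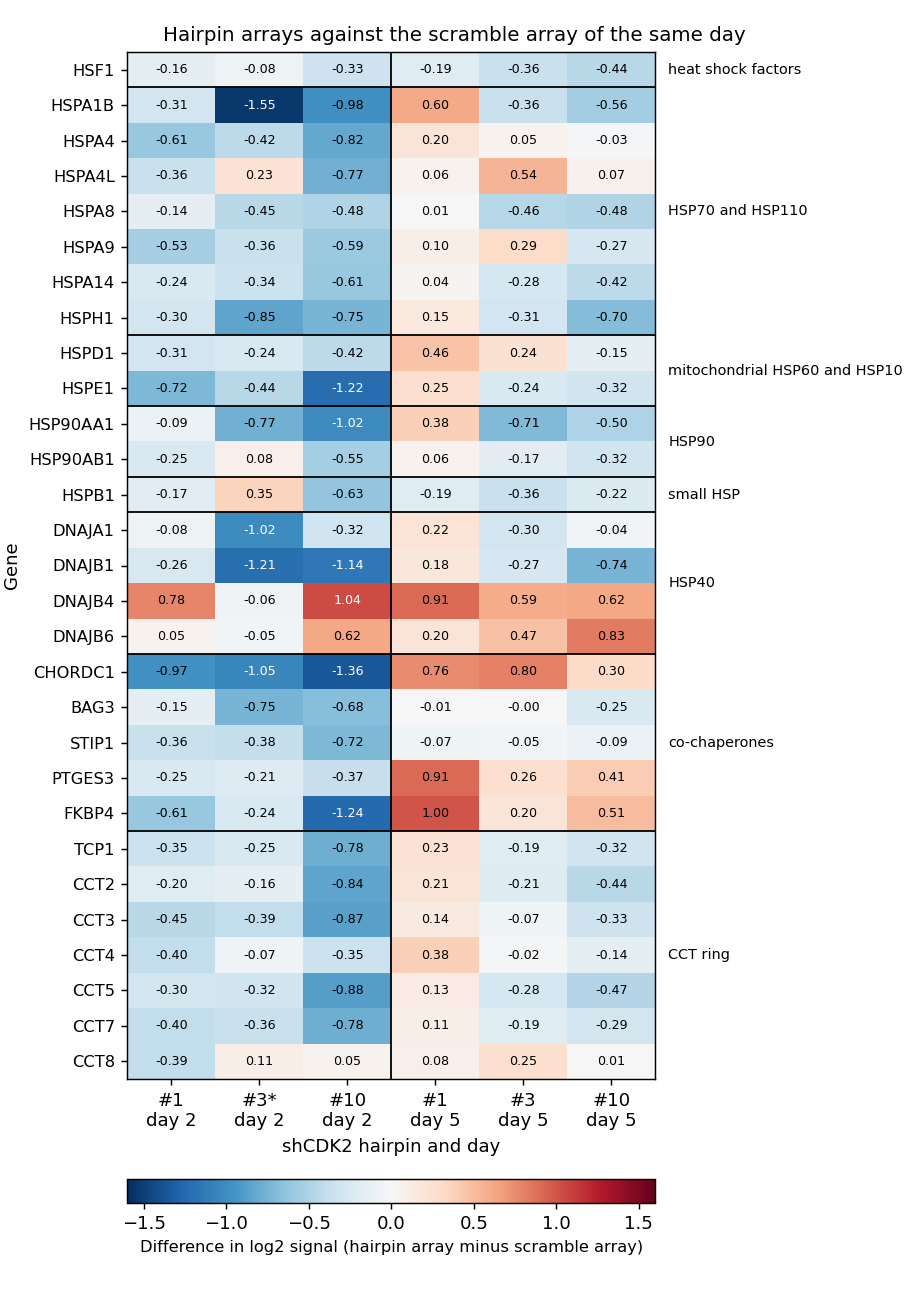
Difference in log2 signal between each hairpin array and the scramble array of the same day for the 29 members measured, in rows grouped by role, with the day 2 arrays left of the vertical line; blue is below scramble, red above, and each cell prints its value. The column marked #3* is the day 2 array labelled shCDK2 #3. Blue fills most of the day 2 columns (27, 25 and 26 members below scramble), while in #1 at day 5 only 4 members lie below.

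At day 5 the members parted by hairpin. Against the day 5 array labelled scramble, the median was 0.18 in #1, -0.17 in #3 and -0.27 in #10, where all genes had -0.03, -0.09 and -0.11. The number of members below that array was 4 in #1, 19 in #3 and 22 in #10 (56.7%, 56.1% and 62.2% of all genes). All 3 hairpins lay below it for 4 members, HSF1, HSPB1, BAG3 and STIP1 (30.0% of all genes), and all 3 above it for 7, HSPA4L, DNAJB4, DNAJB6, CHORDC1, PTGES3, FKBP4 and CCT8 (16.0%). BAG3 counted among the 4 by only -0.01 in #1 and -0.00 in #3, and STIP1 by -0.05 to -0.09. No member and no gene (0.0%) passed with limma, and 0 members and 171 genes had an unadjusted p under 0.05 (1.33%). Of the members 18 lay below scramble (60.8% of all genes), 20 after quantile normalization and 16 after median centring, with a median of -0.09 that equalled that of all genes. That median was -0.16 after quantile normalization, -0.02 after median centring, -0.20 without #1 and 0.00 without #10. The scramble signal itself had a lower value at day 5 than at day 2 for 26 of the 29 members, which held for 44.0% of all genes. That step is drawn from the day 5 array labelled scramble.

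Over both days the members lay furthest below scramble in #10, then in #3, and near it in #1. All hairpins as one group, from construct means, gave a median of -0.27 with 25 members lower (60.5% of all genes); with limma 0 members and 0 genes passed, and 0 members had an unadjusted p under 0.05 (0.849% of all genes). The hairpins were then fitted one by one, with a term for day. Hairpin #10 had a median of -0.43 (all genes -0.09) with 25 of 29 members lower (61.3% of all genes), #3 had -0.22 with 23 lower (59.1%), and #1 had -0.08 with 20 lower (53.7%). Median centring left 18 members lower in #3, and quantile normalization left 14 in #1. The 3 comparisons share the scramble arrays and are not independent of each other. No member passed with limma in any of them, while 258 genes passed in #10 (2.01%), 4 in #3 (0.0311%) and 0 in #1 (0.0%). At an unadjusted p under 0.05 the members numbered 14 in #10 (20.2% of all genes), of which 12 were lower (9.53% of all genes) and 2 higher (10.7%). In #3 they numbered 6 (9.47%), all lower (3.15%), namely HSPA1B, HSPA8, HSPH1, HSP90AA1, DNAJA1 and DNAJB1. In #1 the only one was DNAJB4 (1.33%), on the high side (0.374%). DNAJB4, also 1 of the 2 higher in #10, passed the limit on low signal only through hairpin arrays, so its place in these counts follows from that limit and supports nothing. Adjusted p-values of the members ran from 0.0871 to 0.975 in #10 and from 0.343 to 0.997 in #3, and all were 1.00 in #1.

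These medians moved with the scramble array used. Without the day 5 array labelled scramble they were -0.69 in #10, -0.42 in #3 and -0.24 in #1, with 27, 24 and 28 members lower. All genes then had medians of -0.00, -0.02 and 0.00. Without scramble at day 2 the member medians were -0.34, -0.01 and 0.12, with 22, 15 and 7 lower. All genes then had -0.13, -0.08 and -0.05. The share of all genes that lay lower was not counted for these settings. Without the day 2 array labelled shCDK2 #3 the member median in #3 was -0.34 (all genes -0.11). Both #3 arrays also enter the spread used for #10. Leaving out either of them brought 2 members past the threshold in #10, DNAJB1 (-0.94, SE 0.16, adjusted p = 0.0342 with limma) and DNAJB6 (0.73, SE 0.13, adjusted p = 0.0383), with 960 genes passing in all.

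**Figure D2:**
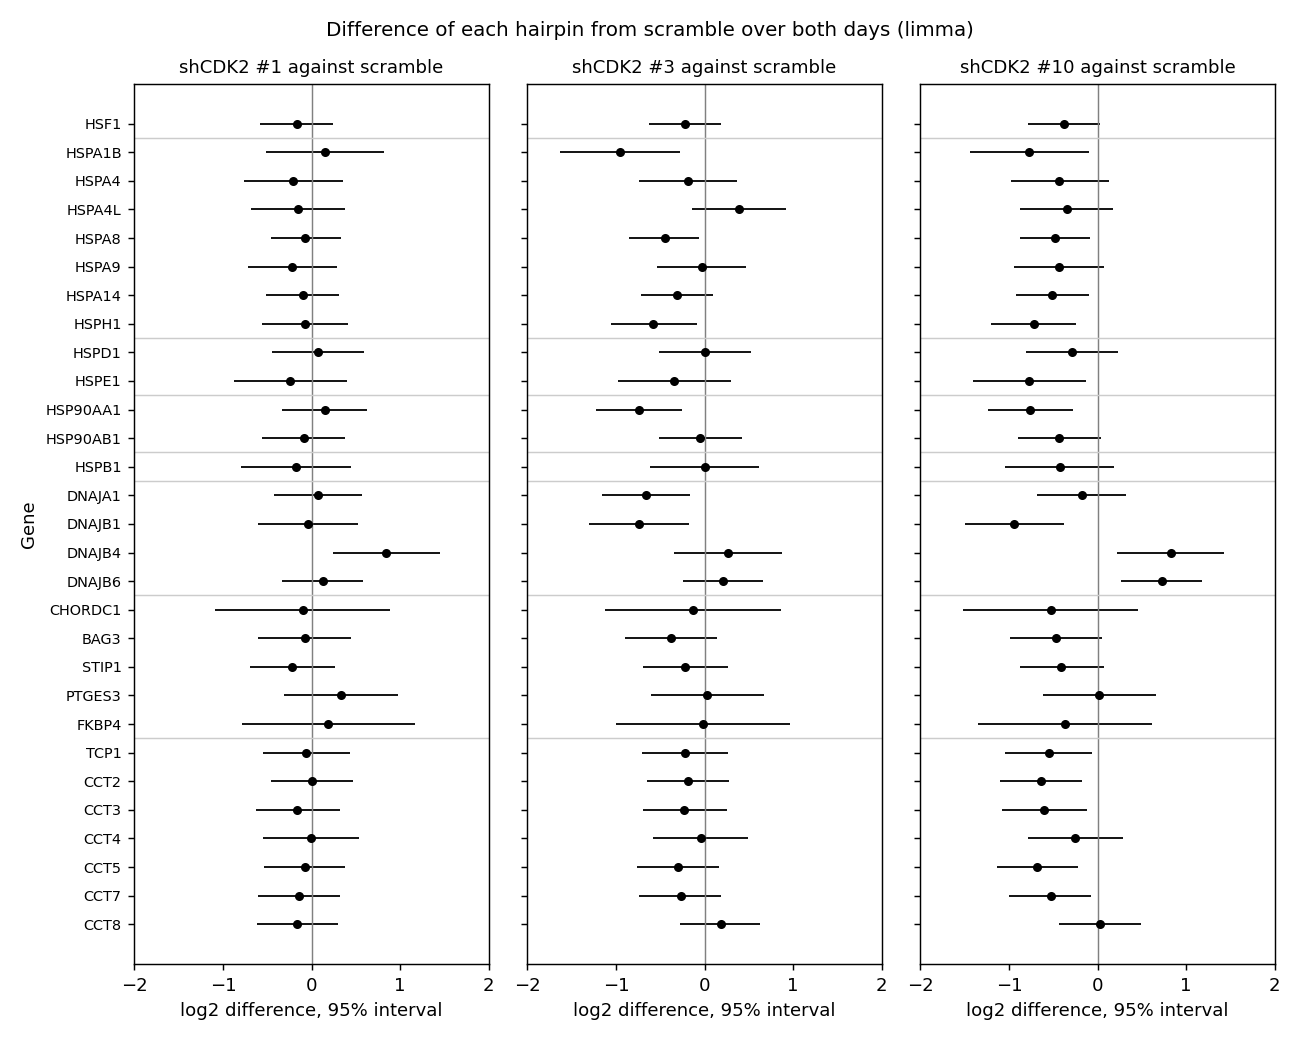
Log2 difference of each hairpin from scramble over both days from limma, with construct and day as terms, for the 29 members; points are estimates, bars their 95% intervals (2 arrays per construct), and grey lines part the role groups. In #10 the estimates of 25 members lie left of 0 and the interval of DNAJB6 lies right of 0; that of DNAJB4 does too, but over scramble signal below the limit of 5.83 and on 1 of its 3 probe sets.

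HSF1, the stress-responsive transcription factor, lay below the scramble array of its day in every hairpin array. Its signal at day 2 was 9.37 in scramble, 9.21 in #1, 9.28 in the day 2 array labelled shCDK2 #3 and 9.04 in #10. HSF1 at day 5 was 9.32 in the day 5 array labelled scramble, 9.14 in #1, 8.96 in #3 and 8.89 in #10. This pattern was seen in 3 members (HSF1, BAG3 and STIP1, 10.3%) and 8.31% of all genes, a like share. For BAG3 it was slight at day 5, with -0.01 in #1 and -0.00 in #3. STIP1 differed by -0.05 to -0.09 at day 5. Its other probe set was above scramble in every hairpin array of that day, by 0.07 to 0.38. For HSF1 the fitted difference was -0.38 in #10 (SE 0.18, limma adjusted p = 0.28) and -0.22 in #3 (SE 0.18, 0.695).

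Among the HSP70 and HSP110 genes the widest differences on the probe sets used were in HSPA1B, a strongly stress-inducible HSP70. On another of its probe sets HSPH1 differed by -1.97 in #10 at day 2, so this order depends on the probe sets used. HSPA1B stood at 9.29 in scramble at day 2, 8.99 in #1, 7.74 in the day 2 array labelled shCDK2 #3 and 8.31 in #10. HSPA1B at day 5 stood at 8.91 in the day 5 array labelled scramble, 9.51 in #1, 8.54 in #3 and 8.35 in #10. The 4 arrays of #3 and #10 were below both scramble arrays, and those of #1 were not. The difference was -0.96 in #3 (SE 0.29, limma adjusted p = 0.376) and -0.77 in #10 (SE 0.29, 0.191). Its size depended on the scramble array, with -0.35 in #10 without scramble at day 2 and -1.19 without the day 5 array labelled scramble. In #3 it was -0.58 without the day 2 array labelled shCDK2 #3. HSPA1B and its near-identical neighbour HSPA1A also share 4 probe sets. On the 3 brighter of these, the difference from scramble at day 2 was -0.40 to -0.44 in #1, -1.07 to -1.78 in the day 2 array labelled shCDK2 #3 and -0.93 to -1.09 in #10. The genes cannot be told apart there.

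HSPH1, the HSP110 protein that helps HSP70 release its nucleotide, followed a like order. Its signal was 11.41 in scramble at day 2, 11.11 in #1, 10.56 in the day 2 array labelled shCDK2 #3 and 10.66 in #10. HSPH1 at day 5 was 11.38 in the day 5 array labelled scramble, 11.53 in #1, 11.08 in #3 and 10.69 in #10. Every array of #3 and #10 was below every array of scramble and #1. The difference was -0.72 in #10 (SE 0.21, limma adjusted p = 0.114) and -0.58 in #3 (SE 0.21, 0.456). HSPH1 has 8 probe sets, and all 8 were lower in #10 on both days, with differences of -0.75 to -1.97 at day 2 and -0.61 to -1.36 at day 5.

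HSPA8, the constitutive HSP70 of the cytosol, was at 14.53 in scramble at day 2, 14.39 in #1, 14.08 in the day 2 array labelled shCDK2 #3 and 14.05 in #10. HSPA8 at day 5 was at 14.44 in the day 5 array labelled scramble, 14.45 in #1, 13.99 in #3 and 13.97 in #10. The #3 and #10 arrays were again below all the others. The difference was -0.48 in #10 (SE 0.17, limma adjusted p = 0.173) and -0.45 in #3 (SE 0.17, 0.464). Its 9 probe sets were all lower in #10 on both days, with differences of -0.48 to -1.64 at day 2. The other 4 genes of the group, HSPA4 and HSPA4L (HSP110 family), HSPA9 (the mitochondrial HSP70) and HSPA14, had differences between -0.35 and -0.51 in #10. HSPA4L was the one member of the group with a higher value in #3 (0.39). In the whole group of 7 the #10 median was -0.48 with all 7 lower.

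HSPD1 (HSP60) and HSPE1 (HSP10), which together form the folding chamber of mitochondria, lay below scramble in every hairpin array at day 2. HSPE1 was at 10.06 in scramble at day 2, 9.34 in #1, 9.62 in the day 2 array labelled shCDK2 #3 and 8.84 in #10. HSPE1 at day 5 was at 9.58 in the day 5 array labelled scramble, 9.83 in #1, 9.35 in #3 and 9.26 in #10. Scramble at day 2 was above every other array, and the day 5 scramble lay within the range of the hairpins. The difference in #10 was -0.77 (SE 0.27, limma adjusted p = 0.172), and -0.43 without scramble at day 2. HSPD1 differed by -0.29 in #10 and by 0.00 in #3. The probe set used was at -0.42 in #10 at day 2 and -0.15 at day 5. Over its 8 probe sets, 1 of them shared with another gene, these differences ran from -0.71 to -0.24 and from -0.63 to -0.08. The size for HSPD1 thus depends on the probe set. HSPD1 and HSPE1 are divergently placed, with start sites close together on chromosome 2.

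HSP90, the chaperone of kinases and steroid receptors, has an inducible and a constitutive cytosolic gene. HSP90AA1, the inducible one, was at 12.84 in scramble at day 2, 12.75 in #1, 12.07 in the day 2 array labelled shCDK2 #3 and 11.82 in #10. HSP90AA1 at day 5 was at 12.72 in the day 5 array labelled scramble, 13.11 in #1, 12.02 in #3 and 12.22 in #10. The 4 arrays of #3 and #10 were all below the 4 of scramble and #1, by a gap wider than the spread within either. Its difference was -0.76 in #10 (SE 0.21, limma adjusted p = 0.0986), -0.74 in #3 (SE 0.21, 0.343) and 0.15 in #1. HSP90AB1, the constitutive gene, differed by -0.43 in #10 (SE 0.20, adjusted p = 0.283) and by -0.05 in #3 (0.00 after median centring). The difference between these genes was not tested.

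HSPB1 (HSP27), the small heat shock protein that holds unfolded proteins without ATP, was at 9.73 in scramble at day 2, 9.56 in #1, 10.08 in the day 2 array labelled shCDK2 #3 and 9.10 in #10. HSPB1 at day 5 was at 9.60 in the day 5 array labelled scramble, 9.41 in #1, 9.24 in #3 and 9.38 in #10. The hairpin arrays lay on both sides of scramble at day 2. The difference in #10 was -0.42 (SE 0.27, limma adjusted p = 0.445).

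The HSP40 genes went both ways. DNAJB1, the inducible HSP40 that drives the HSP70 cycle, was at 9.61 in scramble at day 2, 9.35 in #1, 8.40 in the day 2 array labelled shCDK2 #3 and 8.46 in #10. DNAJB1 at day 5 was at 9.63 in the day 5 array labelled scramble, 9.81 in #1, 9.36 in #3 and 8.89 in #10. Both #10 arrays were below all arrays of scramble and #1. The difference was -0.94 in #10 (SE 0.24, limma adjusted p = 0.0871), the furthest from 0 of any member in that comparison on the probe sets used. It was -0.98 with an adjusted p of 0.0479 after quantile normalization, and -0.94 with 0.0342 without the day 2 array labelled shCDK2 #3. It was -0.65 with 0.463 without scramble at day 2. All 3 DNAJB1 probe sets were lower in #10 on both days.

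DNAJA1, a farnesylated HSP40, differed in the day 2 array labelled shCDK2 #3 above all. It was at 12.16 in scramble at day 2, 12.08 in #1, 11.14 in that array and 11.84 in #10, then at 12.08 in the day 5 array labelled scramble, 12.31 in #1, 11.78 in #3 and 12.05 in #10. The #3 difference was -0.66 (SE 0.21, limma adjusted p = 0.389), and -0.40 without that array. This array was the lowest of the 8 for 7 members, HSPA1B, HSPH1, DNAJA1, DNAJB1, DNAJB4, DNAJB6 and BAG3, as it was for 10.3% of all genes.

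DNAJB6, an HSP40 that suppresses aggregation of polyglutamine proteins, had more signal in #10. It was at 11.07 in scramble at day 2, 11.12 in #1, 11.02 in the day 2 array labelled shCDK2 #3 and 11.69 in #10, then at 11.09 in the day 5 array labelled scramble, 11.29 in #1, 11.56 in #3 and 11.92 in #10. The #10 arrays were the highest of their day and above both scramble arrays. The difference in #10 was 0.73 (SE 0.19, 95% interval 0.27 to 1.18, limma adjusted p = 0.0968), with 0.0383 without the day 2 array labelled shCDK2 #3. It has 5 probe sets, of which a pair holds identical values and so gives 4 distinct readings. All were higher in #10 than in scramble, by 0.12 to 0.62 at day 2 and 0.17 to 0.83 at day 5. They did not all place #10 highest: on that pair #10 was at 8.48 at day 5, against 8.90 in #1. The day 2 array labelled shCDK2 #3 differed from scramble by -2.12 on that pair.

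DNAJB4 was at 5.73 in scramble at day 2, 6.52 in #1, 5.67 in the day 2 array labelled shCDK2 #3 and 6.77 in #10. DNAJB4 at day 5 was at 5.81 in the day 5 array labelled scramble, 6.71 in #1, 6.40 in #3 and 6.42 in #10. All hairpin arrays but that of #3 at day 2 lay above scramble. The difference was 0.83 in #10 (SE 0.26, limma adjusted p = 0.134) and 0.84 in #1 (SE 0.26, adjusted p = 1.00). Its scramble values are below the limit on low signal of 5.83. The gene's other 2 probe sets do not show the difference, with values between -0.59 and 0.45 over the 6 hairpin arrays, so this one rests on a single probe set.

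**Figure D3:**
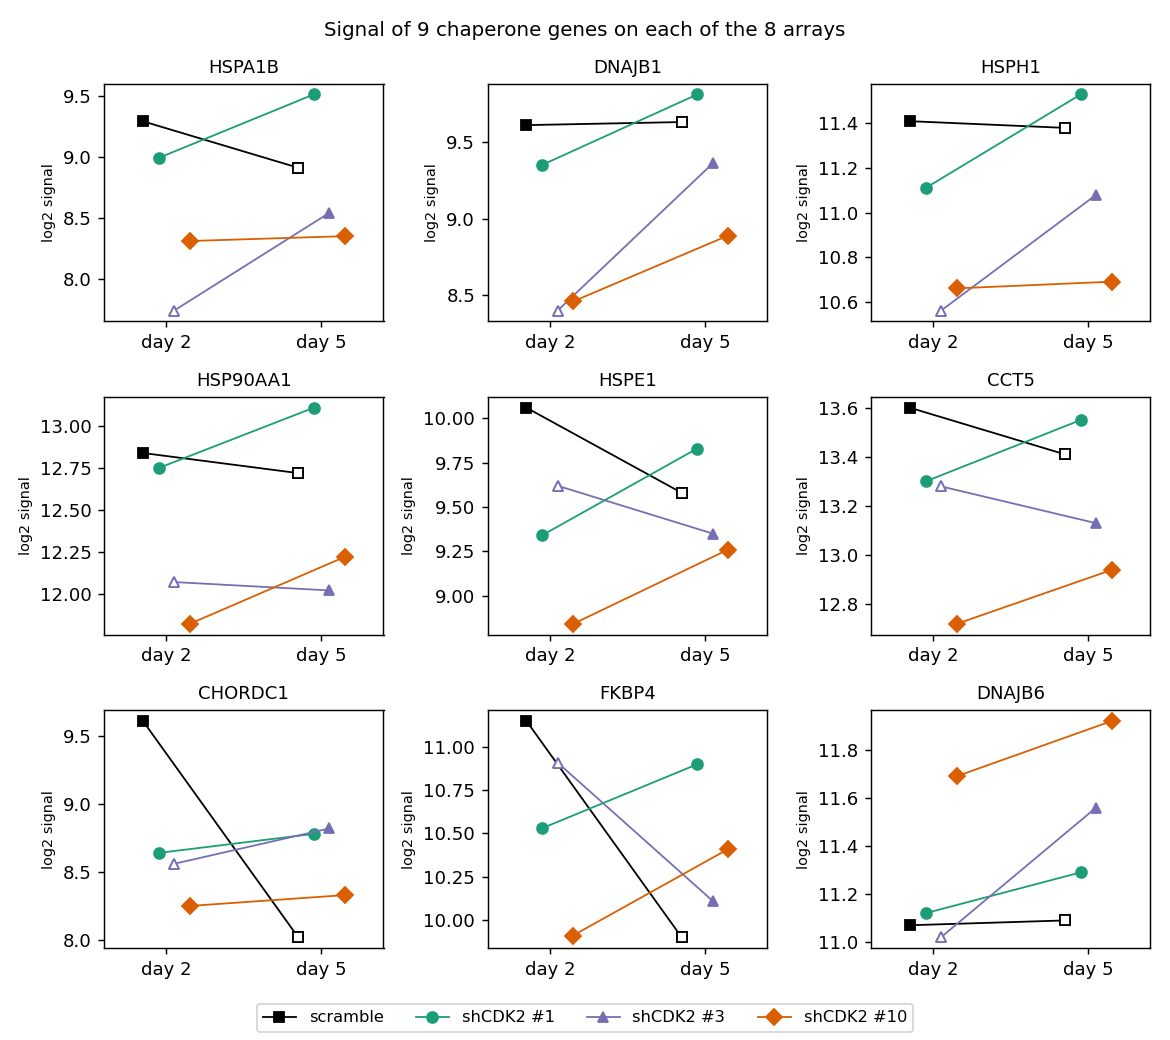
Log2 signal on each of the 8 arrays for 9 members, with day on the x axis, 1 point per array and lines joining the arrays of a construct; each panel has its own y axis, which does not start at 0. Open symbols are the day 2 array labelled shCDK2 #3 and the day 5 array labelled scramble. HSPH1 and HSP90AA1 show #3 and #10 below scramble and #1, while CHORDC1 and FKBP4 show scramble at the top of the range at day 2 (9.61 and 11.15) and at the bottom at day 5 (8.02 and 9.90).

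Of the 5 co-chaperones, 3 had hairpin arrays on opposite sides of scramble at day 2 and day 5. CHORDC1, an HSP90 partner, was at 9.61 in scramble at day 2, 8.64 in #1, 8.56 in the day 2 array labelled shCDK2 #3 and 8.25 in #10. CHORDC1 at day 5 was at 8.02 in the day 5 array labelled scramble, 8.78 in #1, 8.82 in #3 and 8.33 in #10. The 6 hairpin arrays kept to a range of 8.25 to 8.82, with scramble above it at day 2 and below it at day 5. CHORDC1 has 8 probe sets, and not all show this. On the one with a mean of 8.18, the day 5 differences were 0.35 in #1, -0.13 in #3 and -0.31 in #10. For knockdown against scramble at day 2 the difference was -1.13 (SE 0.28, 95% interval -1.78 to -0.48, limma adjusted p = 1.00). Over both days it was -0.53 in #10 (SE 0.43, 0.565), -1.40 without the day 5 array labelled scramble and 0.34 without scramble at day 2.

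FKBP4 (FKBP52), which escorts steroid receptors on HSP90, was at 11.15 in scramble at day 2, 10.53 in #1, 10.91 in the day 2 array labelled shCDK2 #3 and 9.91 in #10. FKBP4 at day 5 was at 9.90 in the day 5 array labelled scramble, 10.90 in #1, 10.11 in #3 and 10.41 in #10. PTGES3 (p23), which holds HSP90 closed around its client, was at 13.13, 12.88, 12.92 and 12.76 in the same order at day 2. At day 5 PTGES3 was at 12.35 in the day 5 array labelled scramble, 13.26 in #1, 12.61 in #3 and 12.76 in #10. Scramble was above all hairpins at day 2 and below them at day 5 for these genes as for CHORDC1, which held for 3 members and 3.20% of all genes. The difference of the knockdown change between days was 1.75 for CHORDC1 (SE 0.39, 95% interval 0.83 to 2.66), 1.27 for FKBP4 (SE 0.61) and 0.80 for PTGES3 (SE 0.39), with limma adjusted p = 1.00 for each. BAG3, which links HSP70 to autophagy, and STIP1 (HOP), which hands clients from HSP70 to HSP90, differed by -0.47 and -0.41 in #10 (SE 0.22 and 0.20), and PTGES3 by 0.02 (SE 0.27).

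The CCT ring was measured through 7 subunits, TCP1 (CCT1), CCT2, CCT3, CCT4, CCT5, CCT7 and CCT8. CCT5 was at 13.60 in scramble at day 2, 13.30 in #1, 13.28 in the day 2 array labelled shCDK2 #3 and 12.72 in #10. CCT5 at day 5 was at 13.41 in the day 5 array labelled scramble, 13.55 in #1, 13.13 in #3 and 12.94 in #10. Both #10 arrays were below every other array. The difference in #10 was -0.68 (SE 0.20, 95% interval -1.13 to -0.22, limma adjusted p = 0.116). CCT2 differed by -0.64, CCT3 by -0.60, TCP1 by -0.55, CCT7 by -0.53 and CCT4 by -0.25, with adjusted p from 0.136 to 0.627. CCT8 had the value nearest 0 of the ring in #10; its signal was 12.90 in scramble at day 2, 12.50 in #1, 13.00 in the day 2 array labelled shCDK2 #3 and 12.94 in #10. It was at 12.55 in the day 5 array labelled scramble, 12.63 in #1, 12.79 in #3 and 12.56 in #10. The #10 values of CCT8 were within 0.05 of scramble on both days, and the fitted difference was 0.03 (SE 0.20, 95% interval -0.43 to 0.49). In #3 the subunits other than CCT8 ran from -0.30 to -0.04, and CCT4 reached 0.00 after median centring. In #1 the 7 subunits ran from -0.16 to 0.00. A subunit's mRNA says nothing of how many assembled rings a cell holds.

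Set against each other, the hairpins differed most between #10 and #1. The median difference of #10 from #1 was -0.38 (all genes -0.08), with 27 of 29 members lower (59.0% of all genes), and 24 were lower on both days (47.1%). No member passed with limma, where 42 genes did (0.327%). At an unadjusted p under 0.05 there were 9 members (15.8%), 8 of them lower (4.71%) and 1 higher (11.1%). HSP90AA1 differed by -0.91 (SE 0.21, 95% interval -1.39 to -0.43, adjusted p = 0.105), HSPA1B by -0.92 (SE 0.29, 0.191) and DNAJB1 by -0.90 (SE 0.24, 0.147). DNAJB1 passed without either #3 array (-0.90, adjusted p = 0.0456). DNAJB6 was higher in #10 by 0.60 (SE 0.19, 0.202). For #3 against #1 the median was -0.13 with 22 members lower (54.5%), 9 of them on both days (32.8%), and 0 members and 0 genes (0.0%) passed with limma. This median was not stable in sign: it was -0.33 without #1 at day 2 and 0.04 without #1 at day 5. It was -0.24 with 25 lower after quantile normalization and -0.07 with 18 lower after median centring. At an unadjusted p under 0.05 there were 6 members (12.0%), 5 of them lower (2.89%) and 1 higher (9.11%), with HSPA1B at -1.11 (SE 0.29) and HSP90AA1 at -0.89 (SE 0.21). Between #10 and #3 the median was -0.20 with 25 members lower (51.0%), 18 of them on both days (23.0%), with 0 members and 0 genes (0.0%) passing and 2 members at an unadjusted p under 0.05 (5.76%). These were HSPA4L (-0.74, SE 0.23), where 2.55% of all genes were lower, and DNAJB6 (0.51, SE 0.19), where 3.22% were higher. For HSP90AA1 the interval of #10 against #3 was -0.50 to 0.46, so differences of up to about that size between these hairpins are not resolved.

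Day 5 against day 2 in the hairpins gave a median of 0.02, with 0 members and 0 genes (0.0%) passing with limma and 0 members at an unadjusted p under 0.05 (2.02% of all genes). Of the members 9 were lower at day 5 (56.8% of all genes), and 14 were after quantile normalization. The difference of the knockdown change between days had a median of 0.39 over the members and -0.04 over all genes. Relative to all genes the members lay at 0.43, also after median centring, which moved the median of all genes to 0.07. After quantile normalization the members had a median of 0.24, or 0.33 relative to all genes. No member and no gene (0.0%) passed, and CHORDC1 was the one member at an unadjusted p under 0.05 (1.28%), on the high side (1.01%); 2 members had a value below 0 (53.8%). In scramble the step from day 2 to day 5 was -1.59 for CHORDC1, -1.24 for FKBP4 and -0.78 for PTGES3, and in the hairpins it lay between 0.08 and 0.26 for CHORDC1.

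Other genes of the folding network were read from further lists by role. In #10 against scramble over both days, 2 of the 96 tested passed with limma (2.08%), close to the 2.01% of all genes. BAG2, an exchange factor of HSP70 that blocks the ubiquitin ligase CHIP, fell by 1.12 on the log2 scale (SE 0.21, adjusted p = 0.046). Its signal was 9.06 in scramble at day 2, 8.55 in #1, 8.16 in the day 2 array labelled shCDK2 #3 and 7.91 in #10. It was 8.76 in the day 5 array labelled scramble, 8.81 in #1, 8.25 in #3 and 7.68 in #10. Both #10 arrays were the lowest of their day. BAG2 passed narrowly: its adjusted p was 0.074 after median centring, 0.0539 with the filter at the 60th percentile and 0.0743 with the mean of probe sets. Without any one of the scramble or #10 arrays it was 0.107 to 0.313, with differences of -0.95 to -1.29; a construct then has 1 array, which is assumed to vary as the others do. JUN, listed as a gene that HSF1 can raise and also a common early response gene, rose by 3.48 (SE 0.38, adjusted p = 0.0154), from 6.30 and 7.08 in the scramble arrays to 9.38 and 10.96 in #10. JUN did not pass without scramble at day 2 (3.94, adjusted p = 0.163) or without the day 5 array labelled scramble (3.02, adjusted p = 0.187). The list of 10 other HSF1 targets that holds JUN had a median of 0.14, with RGS2 at 1.35 (SE 0.69, adjusted p = 0.332).

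In the same comparison 61.3% of all genes were lower, with a median of -0.09, and the lists are given beside that. The 5 BAG and exchange factors were all lower in #10 (median -0.54), and BAG1 was at -0.59. The 11 further CCT and prefoldin genes had a median of -0.13, with CCT6A, another ring subunit, at -0.54 (SE 0.27, limma adjusted p = 0.308) and CCT6B at 0.35. Of the 19 other HSP40 genes 12 were lower (median -0.28), a share near that of all genes, with DNAJC11 at -0.82 and DNAJB5 at 1.36 (SE 0.30, 0.069). The 11 mitochondrial chaperones and proteases had a median of -0.34, with TIMM44 at -0.77 and CLPB at -0.60. The 14 other HSP90 co-chaperones had -0.01, with PPP5C at -0.81 and UNC45A at -0.77. The 4 other small heat shock proteins had -0.20, HSPB6 at -0.41 and CRYAB at -0.26, and the 3 other heat shock factors and regulators -0.26, HSPBP1 at -0.54 and HSBP1 at -0.26. The 5 other HSP70 genes had 0.13, with HSPA13 at 0.90 and HSPA6, a strictly inducible HSP70, at 0.87 (SE 0.19, 0.0669). Chaperones of the endoplasmic reticulum, which fold secreted proteins and answer to another stress pathway, were on the high side in #10. Of 14 tested 11 were higher in #10 (median 0.25), DNAJB9 at 0.95 (SE 0.33, 0.162) and PDIA3, a disulphide isomerase, at 0.87 (SE 0.18, 0.0564). At day 2 the median of these 14 against scramble was -0.06 in #1, 0.01 in the day 2 array labelled shCDK2 #3 and 0.22 in #10. Of the 14, 10, 6 and 5 were lower in these arrays. At day 5 their median over the day 5 array labelled scramble was -0.02 in #1, 0.58 in #3 and 0.55 in #10. Apart from BAG2 and JUN none of these genes passed in #10. Leaving out either #3 array, which enters only the spread here, took the count to 10 of 96 (10.4%) while 7.47% of all genes passed. Among those named here these were PDIA3, DNAJB9, DNAJC11, HSPA6, PPP5C and UNC45A beside BAG2 and JUN, with adjusted p of the first 6 from 0.0284 to 0.04. After quantile normalization 4 passed (4.17%, against 2.83% of all genes), PDIA3 among them (0.91, adjusted p = 0.0484).

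**Figure D4:**
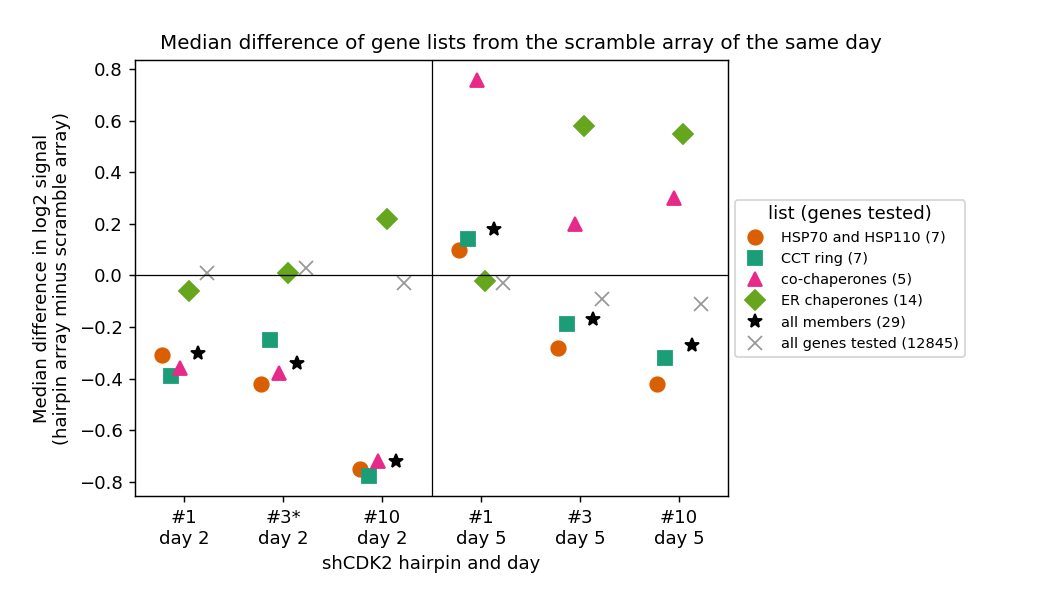
Median log2 difference from the scramble array of the same day for gene lists (symbols, with the number of genes tested in the legend) in each of the 6 hairpin arrays; #3* is the day 2 array labelled shCDK2 #3, and no error is drawn as each array stands alone. HSP70, CCT and co-chaperone medians lie below 0 in all day 2 arrays and lowest in #10 (-0.75, -0.78 and -0.72), while endoplasmic reticulum chaperones lie at 0.58 and 0.55 in #3 and #10 at day 5.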

How the data were processed

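Per the labels, total RNA (6 micrograms) of 8 NB4 samples was hybridised to Affymetrix arrays, and the submitters' processing notes name Partek. The authors deposited log2 values for 49395 probe sets. That they are log2 was inferred from their range (2.46 to 15.1), and the normalization is not given in the sources used here. Values were used as deposited. The array annotation gives 1 gene for 44994 probe sets, several for 1832 and none for 2569. Symbols were updated through RefSeq, where 44967 were found. The limit on low signal was the 40th percentile over probe sets (5.83 log2), and genes whose average lay above it entered the fits.

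Fits used limma 3.58.1 in R 4.3.3, two-sided, with Benjamini-Hochberg adjustment over all 12845 genes and a threshold of 0.05. The knockdown on each day, the step between days and the difference of these came from group means by day, with 4 residual degrees of freedom and a prior of 3.13; the lone scramble array of a day is assumed to vary as hairpin arrays do. Construct and day as terms (3, prior 4.54) gave each hairpin. Construct means (2, prior 3.64) gave the knockdown over both days. The scripts were tested on simulated data. Tables and figures used Python 3.11.15 with pandas 2.3.3, numpy 2.4.6 and matplotlib 3.10.9. The number of arrays limits the precision.

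The members and lists were chosen with earlier results of these data known. All 8 values were printed, by rule, for the member of each role with the largest difference each way in #10 (HSF1, HSPA1B, HSPE1, HSP90AA1, HSPB1, DNAJB1, DNAJB4, CHORDC1, PTGES3, CCT5 and CCT8), and for up to 2 genes of each further list their differences; HSPH1, HSPA8, DNAJA1, DNAJB6 and FKBP4 were added after their values were seen. Alternatives were quantile normalization, median centring, other filters, averaging all probe sets of a gene, a replicate block and leaving out arrays; a construct left with 1 array is assumed to vary as the others do.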

Additional observations from a re-analysis of the deposited data

Results flagged for a closer look

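The knockdown change differed in sign between days for 3 co-chaperones of HSP90. The difference between days was 1.75 for CHORDC1, 0.80 for PTGES3 and 1.27 for FKBP4, on the log2 scale. On the probe sets used, every hairpin array lay below scramble at day 2 and above the day 5 array labelled scramble. All probe sets of FKBP4 and PTGES3 kept these directions, but those of CHORDC1 did not. Over its 8 probe sets the day 5 differences ran from 0.18 to 0.76 in #1, -0.13 to 0.80 in #3 and -0.31 to 0.30 in #10. The limma test of the difference did not pass for any of them (adjusted p = 1.00). For CHORDC1 the scramble signal went from 9.61 to 8.02 while the hairpin arrays ran from 8.25 to 8.64 at day 2 and from 8.33 to 8.82 at day 5.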

How the results depend on the processing

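No member passed with the values as deposited and all 8 arrays, so no member had a call to lose; DNAJB1 and DNAJB6 passed under other settings. Of 1591 member values under other scalings, filters, probe set means or the block, 54 uncalled values changed sign. Only 1 passed the threshold, DNAJB1 in #10. Of 2958 with arrays or hairpins left out, 199 uncalled values changed sign and 9 passed. These 9 hold repeats. Leaving out #3 at day 2, at day 5 or on both days gave the same values for DNAJB1 and DNAJB6, each counted anew. Members passing in #10 against scramble numbered 1 after quantile normalization and 0 to 2 over the arrays left out, and in #10 against #1 they numbered 0 to 1. The median in #10 against #1 was -0.45 after quantile normalization and -0.53 to -0.21 with arrays left out; in #3 against scramble it was -0.42 to -0.01.

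Counts over all genes moved more. In #10 against scramble 258 genes became 82 with median centring (97.6% of them higher, against 84.1% of 258 and 78.5% of 363 after quantile normalization), 131 with the filter at the 60th percentile and 0 to 960 with arrays left out. In #3 against scramble 4 became 0 with median centring, the 60th percentile or the mean of probe sets, and 0 to 213 with arrays left out (27 without hairpin #10). In #10 against #1, 42 became 0 with median centring or the 60th percentile, 19 with the mean of probe sets and 0 to 612 with arrays left out. The ranges with arrays left out were 0 to 33 for #10 against #3, 0 to 465 for #3 against #1 (16 without hairpin #10) and 0 to 11 for the knockdown over both days. The cause was not tested. With the hairpin number as a replicate block, day 5 against day 2 in the hairpins gave 0 genes called and a member median of 0.02, as without it. The number is the hairpin itself. Deviations of same-numbered arrays correlated at 0.72 for #1, -0.23 for #3 and 0.43 for #10, against at most -0.40, 0.32 and 0.57 with other numbers, so the numbers were not taken as pairs throughout. The smallest differences resolved are set by the 2 arrays of a construct.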
